A study of Mus musculus with 35 samples.

Results

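Acetate was compared with water in the medial prefrontal cortex (mPFC) of Shank3-deficient (KO) mice by RNA-seq of bulk tissue punches. The comparison took every library whose labels give the genotype KO and the treatment acetate or control, which came to 9 of the 35 libraries in the series. The KO_acetate group held 5 libraries (3 male, 2 female) and the KO_control group 4 (2 male, 2 female), and both groups carry the same Shank3 deficiency. The control mice drank water, and the treated mice received acetate with no antibiotics. WT mice given acetate (5 libraries) or water (6 libraries) were used where the response of the KO was set against that of the WT. No source used here gives the dose and duration of acetate, the age of the mice or the exact Shank3 mutation. The labels do not say whether libraries of a group came from separate animals, so the p-values speak only of the spread among these libraries, which may be technical.

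SHANK3 is a scaffold protein of the postsynaptic density at excitatory synapses, where SHANK, Homer, SAPAP and PSD-95 proteins link glutamate receptors to the actin cytoskeleton. Acetate is a short-chain fatty acid released by gut bacteria and also made in the liver. Cells take it up through monocarboxylate transporters and join it to coenzyme A with the acetyl-CoA synthetases, in the cytosol and nucleus by ACSS2 and in mitochondria by ACSS1. The resulting acetyl-CoA enters the citric acid cycle, supplies carbon for cholesterol and fatty acids, and donates the acetyl groups that acetyltransferases place on histones.

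Reads assigned to genes ranged from 18750758 to 25361966 over the 9 libraries, the labelled RNA integrity numbers from 8.8 to 9.1, and the Y-linked genes matched the labelled sex in all 9. Shank3 reached 5.11, 4.66, 4.32 and 4.52 log2 CPM (counts of reads divided by the size of the library, as log2) in the controls and 4.07, 4.28, 4.51, 4.20 and 4.45 under acetate, against 8.24 to 8.85 in the 6 WT_control libraries. The excitatory neuron gene Slc17a7, the vesicular glutamate transporter of cortical projection neurons, lay between 10.63 and 11.06 in every library. The list of excitatory neuron markers, summed as linear CPM and returned to log2, reached 12.3 in KO_acetate 1, 12.8 to 13.2 in the other acetate libraries and 12.9 to 13.2 in the controls. Principal components were taken over all 35 libraries. Among the 9, KO_acetate 1 stood apart on the second component, at 60.2 against at most 14.5, and KO_control 1 on the first, at -44.6 against at least -9.78. The replicate numbers only name the libraries. Markers of striatal medium spiny neurons, summed likewise, reached 11.4 in KO_acetate 1 against 9.59 to 9.68 in the other acetate libraries and 9.60 to 9.76 in the controls. Myelin and oligodendrocyte markers, summed in the same way, reached 13.5 in KO_acetate 1, 10.8 to 12.6 in the other acetate libraries and 11.0 to 12.3 in the controls. For the lists with the larger counts, values are also given without the libraries that moved them most. Counts of fewer than 5 members in a list moved with single libraries and are mostly given with all of them.

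No gene passed the test of acetate against control in the KO. With limma and Benjamini-Hochberg adjustment over all 14870 genes, 0 genes were called at an adjusted p under 0.05 (0% of those tested), and the smallest adjusted p was 0.146. At an unadjusted p under 0.05 there were 1940 genes, 982 with higher values under acetate (6.60%) and 958 with lower values (6.44%). The median log2 fold over all genes was 0.00, and 49.6% of genes had a positive and 50.4% a negative one. Without KO_acetate 1 the genes at that unadjusted p numbered 1462 (9.83%), without KO_control 1 1250 (8.41%), and without both 966 (6.50%). In WT cortex the same test called 1 gene (0.00672%), Exosc1, a subunit of the RNA exosome, at a log2 fold of 0.41 ± 0.07 with a limma adjusted p of 0.0482. Exosc1 was at 0.15 ± 0.08 in the KO. It was not called without the WT libraries, described further on, whose genes go against their labels. The values that follow describe single genes and lists on this background. A log2 fold is the fitted difference of acetate minus control in log2 CPM, printed with its standard error.

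The cholesterol synthesis genes were mostly higher in value under acetate. Of 24 measured members, 23 had a positive log2 fold and 13 lay at an unadjusted p under 0.05, all higher under acetate, where 6.60% of all genes did. The median log2 fold of the list was 0.20, and the single negative member was Ebp at -0.02 ± 0.11. None of the members passed the adjusted test. Neurons and glia in the adult brain make their own cholesterol, because lipoproteins of the blood do not cross the blood-brain barrier. The pathway is driven by SREBP2, the product of Srebf2, which binds sterol regulatory elements in the promoters of its targets together with NF-Y at CCAAT boxes.

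The promoter windows of 4 members are printed to show what letters of this kind they hold. They run from 250 bases before to 50 bases after the RefSeq transcript start on GRCm38.p6. Acat2 is shown as the member with the smallest p, Insig1 as the feedback regulator, Mvk as a member whose groups did not overlap, and Hmgcs1 as the one member with a sterol element match. Capitals mark a match to CCAAT or to the sterol element core TCACNCCAC on either strand, so that ATTGG is a CCAAT on the reverse strand. The windows are Acat2 at chr17:12960676-12960975 (minus strand), Insig1 at chr5:28071162-28071461, Mvk at chr5:114444019-114444318 and Hmgcs1 at chr13:119690101-119690400 (plus strand for these 3).
Acat2: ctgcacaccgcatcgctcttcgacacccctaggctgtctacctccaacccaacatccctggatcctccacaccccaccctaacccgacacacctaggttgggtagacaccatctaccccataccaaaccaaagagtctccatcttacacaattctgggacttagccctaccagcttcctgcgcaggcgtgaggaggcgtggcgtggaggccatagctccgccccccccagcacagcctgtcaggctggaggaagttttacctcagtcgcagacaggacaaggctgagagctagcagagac
Insig1: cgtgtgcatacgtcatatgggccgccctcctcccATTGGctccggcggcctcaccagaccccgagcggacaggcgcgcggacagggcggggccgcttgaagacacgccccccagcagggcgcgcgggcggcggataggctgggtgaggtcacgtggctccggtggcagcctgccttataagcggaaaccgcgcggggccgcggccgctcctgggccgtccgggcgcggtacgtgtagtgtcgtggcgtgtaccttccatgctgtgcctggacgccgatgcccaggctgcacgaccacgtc
Mvk: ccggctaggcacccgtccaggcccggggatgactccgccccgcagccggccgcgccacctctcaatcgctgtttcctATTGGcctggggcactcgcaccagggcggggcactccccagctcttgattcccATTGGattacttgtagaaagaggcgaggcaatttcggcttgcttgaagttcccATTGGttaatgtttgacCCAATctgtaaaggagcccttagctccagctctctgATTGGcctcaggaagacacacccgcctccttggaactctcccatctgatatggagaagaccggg
Hmgcs1: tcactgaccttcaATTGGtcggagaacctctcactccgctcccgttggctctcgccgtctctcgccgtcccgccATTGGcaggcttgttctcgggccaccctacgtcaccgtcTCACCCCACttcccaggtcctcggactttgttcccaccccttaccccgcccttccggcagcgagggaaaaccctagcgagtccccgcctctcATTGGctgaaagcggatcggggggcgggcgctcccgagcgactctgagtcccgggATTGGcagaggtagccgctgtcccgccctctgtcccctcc
The Acat2 window held no match, the Insig1 window 1 CCAAT, the Mvk window 5 and the Hmgcs1 window 4 with 1 sterol element core. No matches to different motifs overlapped in these windows.

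A RefSeq window could be matched to 17 of the 24 members, and Fdft1, Fdps, Sqle and Stard4 were among those with none. A CCAAT on either strand was found in 16 of the 17 (94.1%), against 41.1% of the 27025 genes with a window. The sterol element core was found in 1 of the 17 (5.88%), against 1.44% of all genes. These are counts of letters and not of bound sites.

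The pathway begins with the condensation of acetyl-CoA, and its first enzymes lay among the highest values. Acat2, the cytosolic thiolase that joins acetyl-CoA into acetoacetyl-CoA, read 5.36, 5.43, 5.16 and 5.03 log2 CPM in the controls and 5.52, 5.75, 5.51, 5.58 and 5.60 under acetate. Every acetate library was above every control, as for 1.90% of all genes. Its log2 fold was 0.34 ± 0.09, a value 27.0% higher, with an adjusted p of 0.205. Hmgcs1, which makes HMG-CoA, read 8.07, 8.12, 8.36 and 7.99 in the controls and 8.31, 8.46, 8.30, 8.37 and 8.50 under acetate. Its groups overlapped through KO_control 3, and its log2 fold was 0.26 ± 0.09 (adjusted p = 0.279).

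The mevalonate branch, which turns HMG-CoA into isoprenoid units, had positive values throughout. Mvk, the mevalonate kinase, read 4.15, 4.07, 4.14 and 3.88 in the controls and 4.36, 4.47, 4.16, 4.16 and 4.30 under acetate, with the lowest acetate libraries just above the highest control. Its log2 fold was 0.22 ± 0.08. Pmvk, the next kinase, stood at 0.19 ± 0.06 and Mvd, the decarboxylase, at 0.24 ± 0.09, both with overlapping groups. Fdps, which makes farnesyl diphosphate, read 5.37, 5.40, 5.39 and 5.23 in the controls and 5.57, 5.74, 5.55, 5.57 and 5.78 under acetate. The Fdps groups did not overlap, and its log2 fold was 0.30 ± 0.08 (adjusted p = 0.205).

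In the sterol branch the values were more mixed. Sqle, the squalene epoxidase, read 6.0, 5.96, 5.91 and 5.76 in the controls and 6.16, 6.51, 5.96, 6.16 and 6.37 under acetate, where 4 of the 5 acetate libraries exceeded all controls. Its log2 fold was 0.32 ± 0.10. Dhcr7, the last reductase on the way to cholesterol, had a log2 fold of 0.25 ± 0.07, Nsdhl, a sterol dehydrogenase, 0.25 ± 0.07 and Sc5d, the lathosterol desaturase, 0.20 ± 0.07. Several other members of this branch lay nearer the median of all genes: Lss, which closes the sterol rings, at 0.04 ± 0.14, Tm7sf2, a sterol reductase, at 0.01 ± 0.11 and Hsd17b7, a ketosteroid reductase, at 0.04 ± 0.08. Msmo1, a sterol methyl oxidase, was at 0.12 ± 0.09 and Cyp51, the lanosterol demethylase, at 0.11 ± 0.11.

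The regulators of the pathway did not share one value. Insig1, an endoplasmic reticulum protein that holds back SREBP2 and is itself an SREBP target, read 6.57, 6.11, 6.43 and 6.06 in the controls and 6.55, 6.69, 6.59, 6.69 and 6.61 under acetate. KO_control 1 lay inside the acetate range, and the log2 fold was 0.34 ± 0.10, or 0.44 without that library. Srebf2 itself was at 0.05 ± 0.06. Stard4, a sterol carrier, was at 0.21 ± 0.10.

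**Figure D1:**
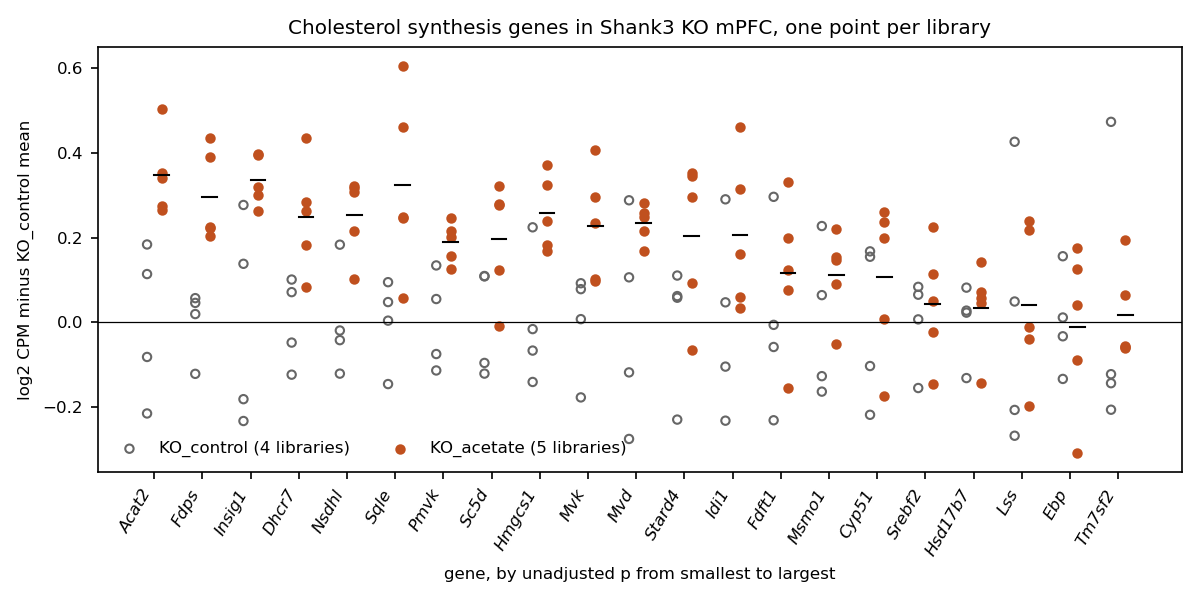
Each point is 1 library: log2 CPM of 1 of 21 cholesterol synthesis genes minus the mean of the 4 KO_control libraries (open grey) for these and the 5 KO_acetate libraries (filled orange), with a black bar at the acetate mean and genes ordered by unadjusted p. The acetate points of Acat2, Fdps and Mvk all lie above the control points, and those of Lss and Tm7sf2 lie among them.

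The median of the cholesterol list moved little when single libraries were left out. It was 0.21 without KO_acetate 1, 0.24 without KO_control 1 and 0.23 without both, where 15 of 24 members were higher at an unadjusted p under 0.05 and the background was 3.32%. Leaving out each of the 9 libraries in turn gave medians of 0.16 to 0.24 and 8 to 16 members. The lowest count, 8, came without KO_control 4 (4.92% of all genes), the control with the lowest mean for the list. The mean deviation of the members from their 35-library means was 0.02, -0.16, -0.04 and -0.23 in the controls and 0.02, 0.20, -0.02, 0.08 and 0.13 under acetate, so the groups overlapped at this level.

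In WT cortex the same genes had a median log2 fold of 0.07, with 15 of 24 positive (50.3% of all genes) and 4 higher at an unadjusted p under 0.05 (4.57% of all genes). Acat2 was at 0.27 ± 0.08 in the WT and Fdps at 0.19 ± 0.08, against 0.34 and 0.30 in the KO. The KO response minus the WT response was positive in 22 of 24 (49.3% of all genes), with a median of 0.14, and 2 members, Sc5d and Pmvk, had an unadjusted p under 0.05 for this difference, where 2.04% of all genes did in that direction. Sc5d was at 0.20 ± 0.07 in the KO and -0.12 ± 0.06 in the WT, a difference of 0.32 ± 0.09. For Pmvk the difference was 0.21 ± 0.08. Over omission of each KO or WT library in turn the median difference of the list was 0.08 to 0.19, with 1 to 6 such members. The adjusted p was 0.997 for both, and over all genes limma called 0 differences between the genotypes, with 543 at an unadjusted p under 0.05 (3.65%). In 3 of the 5 WT_acetate libraries, Shank3, Acr or Y-linked genes went against the labels. Without these 3 and 2 further such WT libraries of the antibiotic group, the WT median of the list was 0.04, from 2 acetate libraries.

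**Figure D2:**
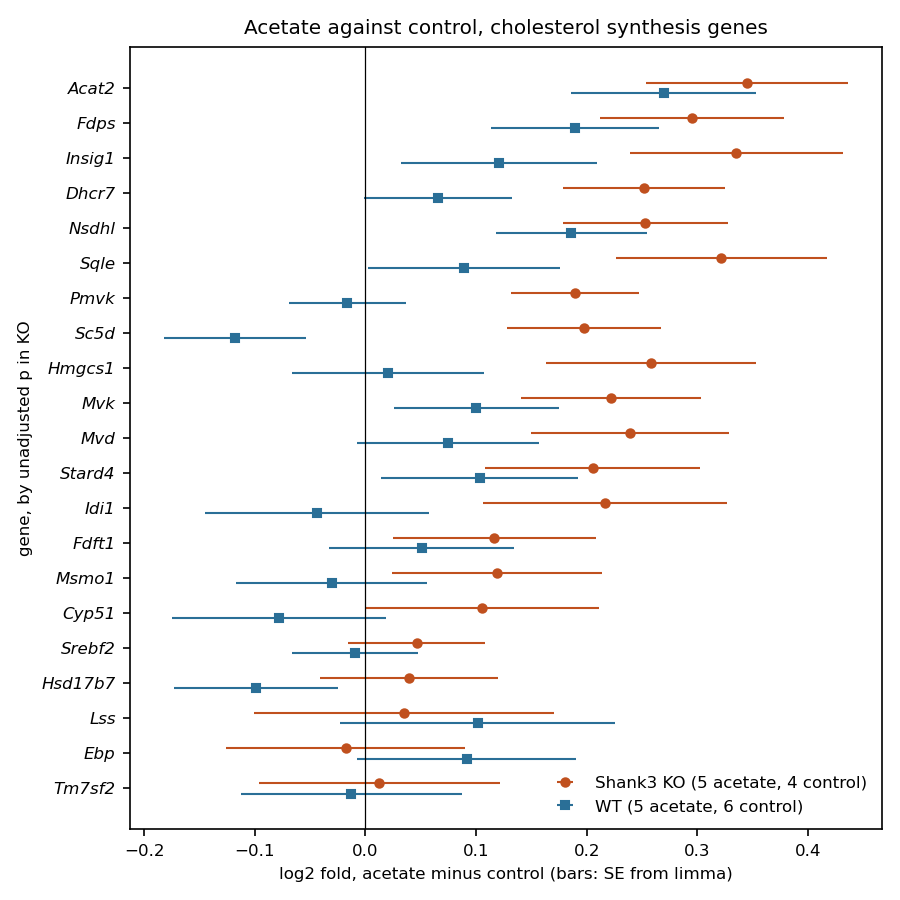
Log2 fold of acetate minus control for 21 cholesterol synthesis genes in KO (orange circles) and WT (blue squares), with bars for the standard error from limma. The KO value is positive for 20 of the 21 genes drawn, and the KO and WT values lie farthest apart for Sc5d, at 0.20 and -0.12.

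The list of acetate and acetyl-CoA enzymes, which includes Acat2 of the cholesterol list, had mostly positive values, from -0.49 to 0.44. Of 26 members 19 were positive (49.6% of all genes), and the median was 0.09. At an unadjusted p under 0.05, 6 were higher (6.60%) and none lower (6.44%). The 6 were Acat2, the ketone body dehydrogenase Bdh1, citrate synthase (Cs), the pyruvate dehydrogenase subunits Pdha1 and Pdhb, and the mitochondrial thiolase Acat1. Bdh1 read 5.70, 5.77, 5.75 and 5.57 in the controls and 5.82, 5.91, 5.90, 5.94 and 5.88 under acetate, without overlap, and its log2 fold was 0.19 ± 0.06 (adjusted p = 0.205). Cs had a log2 fold of 0.14 ± 0.05, also without overlap. In 5 of the 26 members every acetate library was above every control, as for 1.90% of all genes. Without KO_acetate 1 and KO_control 1, 3 members were higher at that p (3.32% of all genes) and the median was 0.07. Single omissions gave 2 members (without KO_control 1, 4.46% of all genes) to 9 (without KO_acetate 3, 7.30%).

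The enzymes that act on acetate itself lay near 0. Acss2 was at -0.10 ± 0.10, with KO_control 1 at 6.12 and all other libraries between 5.62 and 5.87. Acss1 was at -0.05 ± 0.09, and Acly, which makes cytosolic acetyl-CoA from citrate, at 0.03 ± 0.06. Acss3, a further acyl-CoA synthetase, was at -0.49 ± 0.32 at low levels. Fatty acid synthesis and desaturation genes had a median of 0.01, with 0 of 25 higher and 2 lower at an unadjusted p under 0.05, and Acacb, a carboxylase that makes malonyl-CoA, was at -0.43 ± 0.20. Without KO_control 1 none of the 25 was lower at that p, and Acacb was at -0.28.

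Among the monocarboxylate transport genes, 2 of 17 were higher at an unadjusted p under 0.05 and none lower, with a list median of -0.04. Slc16a1, the transporter MCT1, read 3.94, 4.39, 4.51 and 4.41 in the controls and 5.01, 4.62, 4.30, 4.79 and 4.69 under acetate. Here 4 of the 5 acetate libraries exceeded every control, and the log2 fold was 0.37 ± 0.13 (adjusted p = 0.279), or 0.29 without KO_acetate 1. Slc16a3, the transporter MCT4, was at 0.43 ± 0.20 with overlapping groups, and Slc16a7, the neuronal transporter MCT2, at -0.04 ± 0.09. The acetate receptor genes Ffar2 and Ffar3 were not analysed here.

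The genes of histone acetylation stayed near the background. Of 23 acetyltransferase genes 2 were higher and 1 lower at an unadjusted p under 0.05, and the median was 0.03. Elp3, the catalytic subunit of Elongator, was at 0.17 ± 0.06, while Ep300 and Crebbp, the p300 and CBP acetyltransferases, were at -0.09 ± 0.06 and -0.14 ± 0.12. Of 24 deacetylase and sirtuin genes 2 were higher and 3 lower, with a median of -0.01. Hdac11 was at 0.16 ± 0.06 and Hdac3 at -0.00 ± 0.07. Histone genes had a median of 0.02, with 3 of 27 higher and 1 lower.

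Genes of the endoplasmic reticulum (ER) stress response were mostly lower in value under acetate. This response is switched on by unfolded proteins through the sensors ATF6, IRE1 and PERK and raises the chaperones of the ER. Of 24 members 20 had a negative log2 fold (50.4% of all genes) and 7 were lower at an unadjusted p under 0.05, where 6.44% of all genes were, and the median was -0.17. Ern1, which encodes IRE1, read 4.42, 4.04, 3.88 and 4.23 in the controls and 3.57, 3.88, 3.97, 3.51 and 3.93 under acetate, a log2 fold of -0.37 ± 0.11 (adjusted p = 0.206), or -0.23 without KO_acetate 1 and KO_control 1. Syvn1, an ER ubiquitin ligase, was at -0.21 ± 0.07 and Atf6 at -0.28 ± 0.13. The Atf6 groups did not overlap, yet its log2 fold was -0.14 without KO_acetate 1, whose value of 6.08 lay below the 6.71 to 6.85 of the other acetate libraries.

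Among the ER chaperones 1 control lay apart from the others. Hspa5, the main chaperone BiP, read 7.43, 8.17, 8.03 and 8.65 in the controls and 7.76, 7.71, 7.46, 7.46 and 7.64 under acetate. The 3 controls other than KO_control 1 lay above all acetate libraries, and KO_control 1 lay below them. The log2 fold of Hspa5 was -0.46 ± 0.18 (adjusted p = 0.299). Sdf2l1, a BiP cofactor, read 3.01, 3.99, 3.91 and 4.66 in the controls and 3.22 to 3.61 under acetate, and Hsp90b1, the ER chaperone GRP94, had a log2 fold of -0.24 ± 0.09. Without KO_control 1, 15 of the 24 members were lower at an unadjusted p under 0.05 (3.95% of all genes), and without it and KO_acetate 1, 13 were, with a median of -0.26 and a background of 3.17%. Without KO_control 4, the control with the highest Hspa5, 2 of the 24 were lower at that p (5.82% of all genes), and the median was -0.08. In WT cortex the median of the list was -0.11, with 3 members lower at that p (4.84% of all genes). Without the WT libraries whose genes go against their labels the WT median was -0.02, with 13 of 24 negative. In that fit 0 members were lower at that p (4.93% of all genes) and 2 higher.

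Glucocorticoid-responsive genes gave a count that moved with single controls. These genes are raised by the steroid hormones of the stress axis acting through the glucocorticoid receptor. Of 27 members 11 were lower at an unadjusted p under 0.05 (6.44% of all genes) and none higher, with a median of -0.26. Fkbp5, a cochaperone of the receptor, read 7.33 in KO_control 1, 5.02 to 5.42 in the other controls and 4.56 to 5.33 under acetate. Plin4, a lipid droplet protein, read 6.29 in KO_control 1 and 1.95 to 2.76 in the other controls. Without KO_control 1 the median was -0.02, with 5 members lower (3.95% of all genes) and 3 higher (4.46%). Without KO_control 2 the median was -0.50, with 19 lower (6.63%). In WT cortex the median of the list was -0.33, with 26 of 27 negative and 8 lower at that p (4.84% of all genes). It was -0.28 with 5 lower (4.93%) when the WT libraries whose genes go against their labels were left out. Members whose KO groups did not overlap were Map3k6, Zbtb16, Cdkn1a and Sult1a1. These are 4 of 27, where 1.41% of all genes had every acetate library below every control. Cdkn1a, a cell cycle inhibitor, read 6.32, 4.95, 5.79 and 5.69 in the controls and 4.22 to 4.90 under acetate, a log2 fold of -1.06 ± 0.31 (adjusted p = 0.205).

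**Figure D3:**
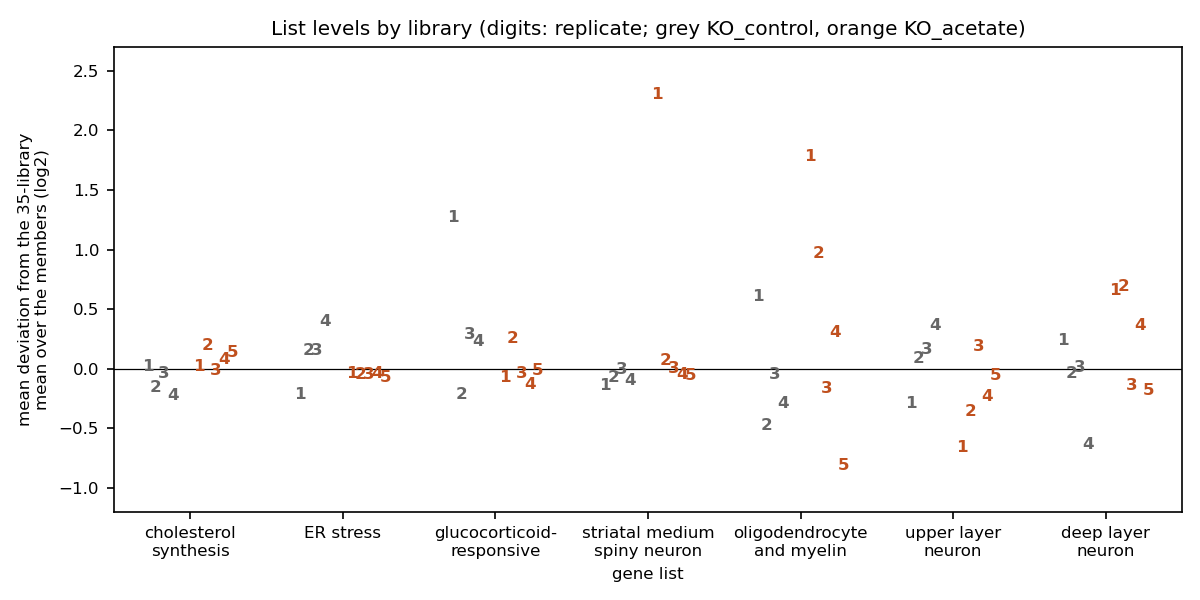
Each digit is 1 library (grey KO_control, orange KO_acetate), placed at the mean log2 deviation of a list's members from their 35-library means. The digit 1 of the acetate group reaches 2.30 for the striatal list and 1.78 for the myelin list, and the digit 1 of the control group reaches 1.27 for the glucocorticoid list.

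Several circadian clock genes differed in value in both directions. The clock is a feedback loop in which CLOCK or NPAS2, paired with BMAL1 (Arntl), drive genes such as Dbp and the Per and Cry repressors. Npas2 read 5.60, 5.59, 5.55 and 5.60 in the controls and 5.16, 5.21, 5.34, 4.99 and 5.38 under acetate. The groups did not overlap, as for 1.41% of all genes in this direction, and the log2 fold was -0.37 ± 0.09 (adjusted p = 0.205). Clock was at -0.19 ± 0.06, also without overlap, and Arntl at -0.38 ± 0.15. Dbp was at 0.49 ± 0.20 and Bhlhe41, a repressor of the loop, at 0.44 ± 0.18, with every acetate library above the controls for Bhlhe41. Of the 22 clock genes, 2 were higher (6.60% of all genes) and 3 lower (6.44%) at an unadjusted p under 0.05, with a median of 0.04. Without KO_control 1, 0 were higher (4.46%) and 3 lower (3.95%), and the median was -0.03. Without KO_acetate 1, 4 were higher (4.84%) and 3 lower, and the median was 0.14. No source used here gives the hour of tissue collection, and its part in these values was not tested.

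Immediate early genes, the first to be transcribed when a neuron fires, spread widely among the libraries. Fos, a subunit of the AP-1 transcription factor, read 2.57, 3.02, 4.80 and 5.11 in the controls and 4.16, 6.14, 4.65, 4.70 and 4.38 under acetate, a log2 fold of 0.93 ± 0.49 with overlapping groups. Of 35 members 26 were positive with a median of 0.20, and 2 were higher and 1 lower at an unadjusted p under 0.05. Single omissions moved this median from 0.08 without KO_acetate 2 to 0.43 without KO_control 4, and the members higher at that p from 0 to 7. Sik1, an activity-induced kinase, was at 0.74 ± 0.29 and Egr3, a zinc finger factor, at -0.84 ± 0.34. In WT cortex the list had a median of -0.68, with 25 of 35 lower at that p (4.84% of all genes). The KO response minus the WT response was positive in 32 of 35, with a median of 0.86, and 19 had an unadjusted p under 0.05 where 2.04% of genes did. Sik1 differed by 1.59 ± 0.40 and Fos by 1.90 ± 0.66, each with an adjusted p of 0.997. Over omission of each KO or WT library in turn the median difference was 0.66 to 1.08, with 9 (without KO_acetate 2) to 24 such members (without KO_control 4), and 11 without KO_control 2. Without the 5 WT libraries whose genes go against their labels, which leaves 2 WT_acetate libraries, the WT median was -0.65 with 10 members lower (4.93% of all genes), and the median difference was 0.81 with 10 such members.

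Postsynaptic scaffold genes, the partners of SHANK3, were lower in value for most members. Of 34 members 29 had a negative log2 fold (50.4% of all genes) and 11 were lower at an unadjusted p under 0.05 (6.44%), with a median of -0.13. Shank1 read 10.00, 10.12, 10.14 and 10.02 in the controls and 9.18, 9.61, 9.96, 9.67 and 9.97 under acetate. The groups did not overlap, but KO_acetate 3 and KO_acetate 5 lay just below the lowest control, and the log2 fold was -0.38 ± 0.13 (adjusted p = 0.255). Shank2 was at -0.38 ± 0.13, Sipa1l1, a RapGAP of the postsynaptic density, at -0.36 ± 0.11 and Homer1, which links SHANK to metabotropic receptors, at -0.57 ± 0.24. Shank3 itself was at -0.36 ± 0.17, at the low KO level given above.

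KO_acetate 1 gave the lowest value of Shank1, Shank2 and the synaptic kinase gene Camk2a. Without it the list had 4 of 34 members lower at an unadjusted p under 0.05 (11.8%), none higher, and a median of -0.11. Of all genes 9.83% reached that p in this fit with both directions together, and 4.84% did so with higher values. The 11.8% counts lower values only, so the share like it is what remains of the 9.83% after the 4.84%. Without KO_acetate 1 and KO_control 1 there were 7 members lower (3.17% of all genes) and the median was -0.13. The count over single omissions went up to 14, without KO_acetate 3 (7.37%). Glutamate receptor genes lay closer to the background, with 4 of 30 ionotropic subunits and auxiliary genes lower and 1 higher, and 2 to 6 lower over single omissions. Grin2a, an NMDA receptor subunit, was at -0.38 ± 0.11 and Grin2b at -0.34 ± 0.14, or at -0.26 and -0.31 without KO_acetate 1. None of the 7 metabotropic receptor genes and none of the 23 GABA receptor and synthesis genes reached an unadjusted p under 0.05. Sstr2, a somatostatin receptor, read 3.34, 3.98, 4.08 and 3.56 in the controls and 4.98, 4.83, 4.03, 4.36 and 4.09 under acetate. Its log2 fold was 0.70 ± 0.19 (adjusted p = 0.205). The difference from the WT response was 0.83 ± 0.26, but no gene passed limma's adjusted test of that difference (smallest adjusted p 0.997).

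Nuclear genes of oxidative phosphorylation had small positive values in nearly every member. Of 82 members 80 were positive (49.6% of all genes) and 27 were higher at an unadjusted p under 0.05 (6.60%), with a median of 0.14. Ndufs7, a complex I subunit, read 6.11, 6.12, 6.06 and 6.12 in the controls and 6.40, 6.22, 6.27, 6.46 and 6.17 under acetate, without overlap and with a log2 fold of 0.20 ± 0.06 (adjusted p = 0.205). Without KO_acetate 1 and KO_control 1 the list had 2 such members and a median of 0.09. Single omissions gave 9 members (without KO_acetate 1, 4.84% of all genes) to 59 (without KO_acetate 5, 8.49%). In WT cortex 79 of the 82 were positive (50.3% of all genes) and 13 higher at that p (4.57%), with a median of 0.10. The KO response minus the WT response had a median of 0.04, with 1 member higher at that p (2.04% of all genes). The 13 genes of the mitochondrial genome had a median of -0.04 in the KO, and none reached an unadjusted p under 0.05. Cytosolic ribosomal protein genes were positive in 75 of 80, with 9 higher at that p and a median of 0.10, led by Rpl3 at 0.19 ± 0.05. Without KO_acetate 1 there were 2 higher and a median of 0.07, without both libraries 2 and 0.06, and single omissions gave 1 (without KO_control 4) to 33 (without KO_acetate 5). The WT median of the ribosomal list was 0.08, with 73 of 80 positive (50.3% of all genes) and 7 higher at that p (4.57%). Without the WT libraries whose genes go against their labels it was 0.04, with 55 of 80 positive and 0 higher at that p. The WT median of the oxidative phosphorylation list was then 0.14, with 81 of 82 positive and 14 higher.

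These lists differ in gene length, and the log2 folds of all genes followed exonic length. The 14427 genes with a GENCODE length were split into 5 equal groups by length. The median log2 fold was 0.06 in the group of the shortest genes and -0.05 in that of the longest, with 0.02, 0.00 and -0.02 between. The median exonic length was 1631 bases for the oxidative phosphorylation list, 1754.5 for the ribosomal list and 9157 for the scaffold list. WT cortex gave 0.05 in the shortest and -0.04 in the longest group. The cholesterol list had a median length of 4409 bases, in the middle group, whose median log2 fold was 0.00. The ER stress list, at 3242 bases, lay in the group next to the shortest, where the median was 0.02. The part of length in the values of these lists was not tested.

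**Figure D4:**
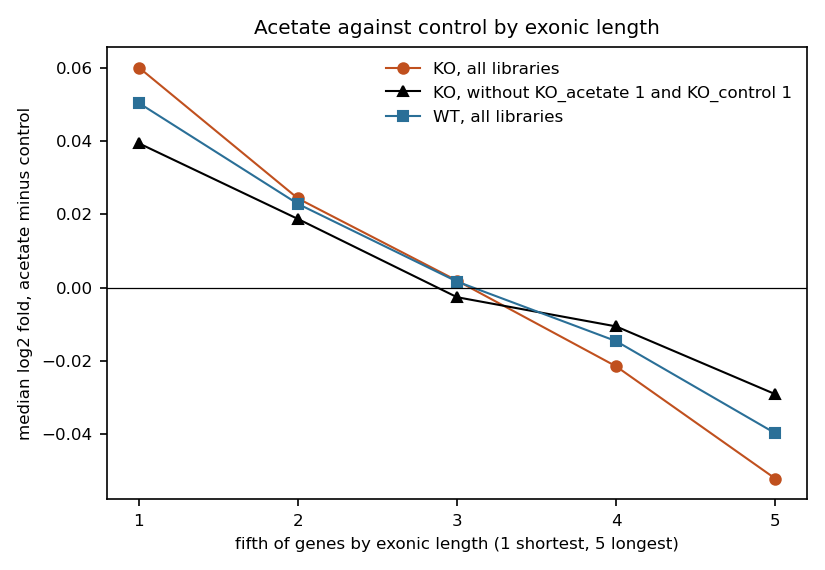
Median log2 fold of acetate minus control in 5 equal groups of genes by exonic length, for KO with all libraries (orange), KO without KO_acetate 1 and KO_control 1 (black) and WT (blue). All 3 lines go from positive in the group of the shortest genes to negative in the longest, with KO at 0.06 and -0.05.

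Markers of cell types and layers also differed between the groups, and in bulk tissue fewer cells of a type and less RNA per cell cannot be told apart. Astrocyte markers had a negative log2 fold in 19 of 20 members (50.4% of all genes), with 6 lower at an unadjusted p under 0.05 (6.44%) and a median of -0.17. Slc1a2, the main glutamate transporter of astrocytes, read 11.34, 11.33, 11.54 and 11.36 in the controls and 11.15, 11.12, 11.17, 11.05 and 11.15 under acetate. The Slc1a2 groups did not overlap, and the log2 fold was -0.25 ± 0.11 (adjusted p = 0.325). Gjb6, a connexin of astrocytes, was at -0.67 ± 0.20, while Gfap and Aqp4 were at -0.16 ± 0.26 and -0.09 ± 0.17. Without KO_control 1, 2 of the 20 were lower at that p and the median was -0.15, and without both libraries 2 were and it was -0.21, with Gjb6 at -0.38. The markers summed to 12.4 to 12.7 in the controls and 12.3 to 12.5 under acetate on the log2 scale.

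Layer markers pointed in opposite directions. Upper layer neuron markers were negative in 16 of 17 (50.4% of all genes), with a median of -0.22 and 4 lower at an unadjusted p under 0.05 (6.44%). Deep layer markers were positive in 18 of 21, with a median of 0.42 and 2 higher. Pcp4, a calmodulin-binding protein of deep layers, read 6.53, 6.73, 6.85 and 6.61 in the controls and 8.44, 6.98, 7.01, 7.22 and 6.92 under acetate, without overlap, and its log2 fold of 0.62 ± 0.26 was 0.35 without KO_acetate 1. Bcl11b, a transcription factor of deep layer and striatal neurons, was at 0.63 ± 0.22, or 0.37 without that library. Fezf2, which specifies deep layer neurons, was at 3.07 in KO_acetate 1 and at 5.47 to 6.30 in the other acetate libraries. Without KO_acetate 1 and KO_control 1 the medians were -0.25 and 0.35. Single omissions gave 0 (without KO_control 4, 5.82% of all genes) to 8 upper layer markers lower (without KO_acetate 3, 7.37%) and 2 to 7 deep layer markers higher. Over these omissions the upper layer median was -0.35 to -0.12 and the deep layer median 0.23 to 0.62. No source used here gives the depth of the punches, and its part in the gene lists was not tested.

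Striatal and myelin markers were high in KO_acetate 1. Striatal markers were positive in 18 of 21 with a median of 0.52, which was 0.03 without that library. Drd2, a dopamine receptor of striatal neurons, read 4.93 in KO_acetate 1 and -0.86 to 0.70 in the other 8 libraries. Myelin and oligodendrocyte markers were positive in 23 of 23 with a median of 0.46, or 0.11 without KO_acetate 1, 0.34 without KO_control 1 as well and 0.76 without KO_acetate 5. Mbp, myelin basic protein, read 12.10 in KO_acetate 1 and 9.22 in KO_acetate 5. Meningeal fibroblast markers were negative in 15 of 15 with a median of -0.70, yet none reached an unadjusted p under 0.05. Microglial markers had a median of -0.07 and endothelial markers of -0.03, with 0 of 23 and 4 of 22 lower at that p. Without KO_control 1 no endothelial marker was lower at that p, yet the median was -0.17 with 18 of 22 negative.

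**Figure D5:**
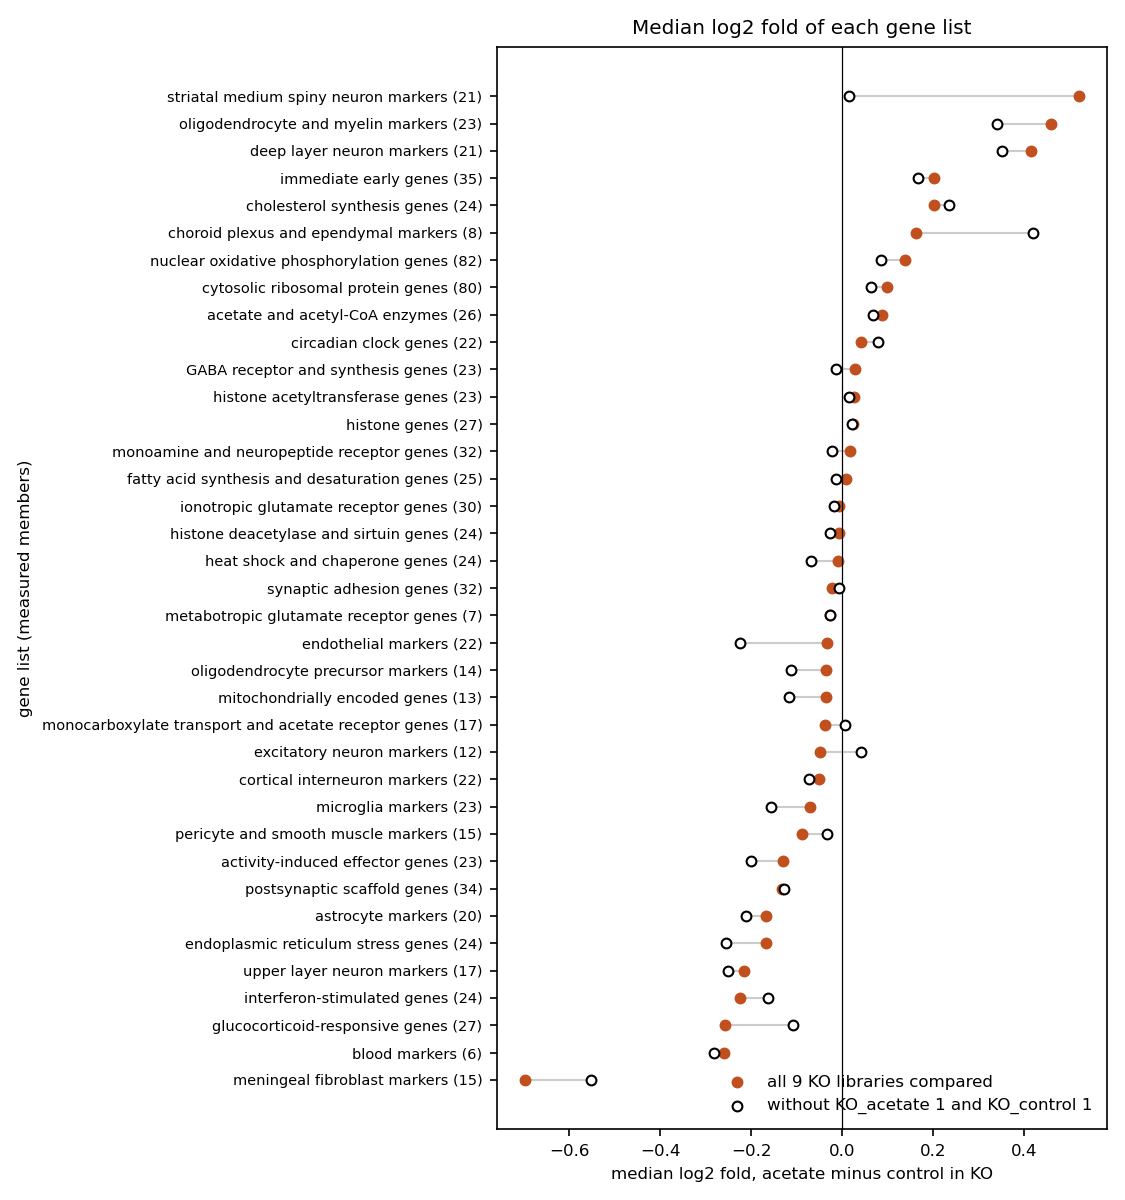
Median log2 fold of acetate minus control in KO for each gene list, with the number of measured members in brackets, from all 9 libraries (filled) and without KO_acetate 1 and KO_control 1 (open). The striatal list goes from 0.52 to 0.01 and the glucocorticoid list from -0.26 to -0.11, while the cholesterol list lies at 0.20 and 0.23.

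The 12 genes with the smallest p in each direction were named by rule, among genes with a mean of at least 0 log2 CPM. On the higher side Sumo3, a ubiquitin-like modifier, read 6.38, 6.42, 6.48 and 6.32 in the controls and 6.87, 6.60, 6.70, 6.64 and 6.61 under acetate. The groups did not overlap, and the log2 fold was 0.29 ± 0.06 (adjusted p = 0.146), or 0.24 without KO_acetate 1. Pfdn6, a prefoldin subunit that hands actin and tubulin to their chaperonin, was at 0.24 ± 0.05, with 5.09 to 5.19 in the controls and 5.29 to 5.48 under acetate. Stmn1, a microtubule-destabilising protein, was at 0.34 ± 0.08. Also higher in value were Hsdl1, 1600014C10Rik, Klhdc8a, Mgst3, Bre, Iqcb1, Gm1821 and Apoa1bp, with log2 folds of 0.26 to 0.57. Gm1821 is a processed pseudogene, so its reads may belong to its parent gene. In 9 of the 12 every acetate library lay above every control, as for 1.90% of all genes. The 12 were chosen by p in these same libraries, which favours such separation, so this count is no further support.

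On the lower side the values were larger and the acetate libraries more scattered. Gm9925, an unnamed gene model at a low level, read 1.80, 1.43, 1.48 and 1.67 in the controls and -0.22, 0.03, 1.36, -0.83 and 0.92 under acetate. Its log2 fold was -1.33 ± 0.27 (adjusted p = 0.146). Alox12b, a lipoxygenase of the skin barrier, was at -1.45 ± 0.31 with overlapping groups and also at a low level. Without KO_acetate 2 Alox12b was called (-1.70, adjusted p = 0.0364), and without KO_acetate 3 Gm9925 was (-1.62, adjusted p = 0.00133). Arhgap31, a GTPase-activating protein for Cdc42 and Rac1, read 5.87, 5.63, 5.67 and 5.68 in the controls and 4.86, 5.18, 5.28, 5.04 and 5.19 under acetate, a log2 fold of -0.60 ± 0.13 (adjusted p = 0.148). In the WT Arhgap31 was at -0.46 ± 0.12, and the difference between the genotypes was -0.14 ± 0.18.

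Among the remaining lower genes, Mertk, a receptor kinase with which astrocytes and microglia engulf debris, was at -0.54 ± 0.14, and Col4a2, a collagen of basement membranes, at -0.66 ± 0.16. Col4a2 was highest in KO_control 1, at 6.82 against 5.77 to 5.98 in the other controls, and its log2 fold without that library was -0.41. Sfpq, a splicing factor of paraspeckles, was at -0.31 ± 0.08 in the KO and -0.27 ± 0.07 in the WT. Iqgap2, Pitpnm2, Pdzd2, Anxa11, Ccdc88a and Serpinb8 completed the set, with log2 folds of -0.27 to -1.03. Pdzd2 was at -0.54 ± 0.13 in the KO and -0.03 ± 0.12 in the WT, a difference of -0.51 ± 0.17 whose adjusted p was 0.997. The lowest value of Serpinb8, Anxa11 and Iqgap2 came from KO_acetate 1, where Serpinb8 read 2.05 against 3.52 to 4.24 in the other acetate libraries.

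The same rule without KO_acetate 1 gave 12 genes in each direction and again none past the adjusted test (0% of all genes), with a smallest adjusted p of 0.317. It added Tpd52, Otx1, Maf1, Bad and Coq10b on the higher side and Itga11, Pde10a, Tinagl1, Htra1 and Plce1 on the lower side. Maf1, a repressor of RNA polymerase III, read 5.92, 5.93, 5.91 and 5.89 in the controls and 5.98, 6.17, 6.01, 6.11 and 6.11 under acetate. Every acetate value of Maf1 lay above the controls, and its log2 fold was 0.17 ± 0.05. Pde10a, a phosphodiesterase abundant in striatal neurons, read 6.50, 6.50, 6.21 and 6.51 in the controls, 8.16 in KO_acetate 1 and 5.71 to 6.10 in the other acetate libraries. Its log2 fold was -0.09 ± 0.26 with that library and -0.51 without it. Tinagl1, an extracellular matrix protein, was at -0.90 without KO_acetate 1 and -0.78 ± 0.21 with it.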

How the data were processed

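RNA from mPFC punches was made into directional libraries and sequenced as paired reads, per the labels' protocols. The authors deposited 1 matrix of log2 CPM (counts scaled to library size) for 35 libraries. Of tools, limma appears in the submitters' processing notes without a version. The aligner, counter, annotation and genome build were not given in the sources used here. Every deposited value corresponded to a whole number of reads plus 0.5 (tolerance 0.01 reads, 100% of values in the library with the lowest share), which gave the depths. Of the gene names, 23 had been turned into dates, and 12 rows repeated another row.

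limma 3.58.1 in R 4.3.3 was fitted to the deposited log2 values of all 35 libraries, with 8 group means and labelled sex, a mean-variance trend and Benjamini-Hochberg adjustment over 14870 genes (threshold 0.05, 2-sided). The contrasts were KO_acetate minus KO_control, the same in WT, and their difference. Count models were not used, since the deposited unit is logarithmic. Named genes were those past the threshold or else the 12 of smallest p in each direction with a mean of at least 0 log2 CPM, repeated without KO_acetate 1, and the 3 of smallest p or the defining genes in a list. Other genes of the lists are named to cover a pathway, and the values of some single genes are not reported here, though all counts and medians include them. The comparison, the 37 gene lists and the tests were chosen with earlier results of these data known. Lists are described by counts and medians beside the same over all genes. A gene's level counts reads without dividing by length, so levels are compared between libraries only. Exonic lengths came from GENCODE M21 by symbol (97.0% matched) and promoter windows from RefSeq. The fit was tested on simulated data. Alternatives were the 9 libraries alone, no sex term, RNA integrity as a covariate, voom weights, robust empirical Bayes, a filter on low means, median centring, 4 reads added in place of 0.5, and omission of libraries.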

Additional observations from a re-analysis of the deposited data

Results flagged for a closer look

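The libraries of each group were compared within each of 37 lists and on other measures, in 124 tests for a single library far from the rest of its group, of which chance alone flags about 1 in 20. The measure for a list is the mean deviation of its members from their 35-library means, in log2 CPM. There were 9 such values. KO_acetate 1 stood at 2.30 for striatal medium spiny neuron markers, where the other acetate libraries lay between -0.05 and 0.07. It also stood at -0.75 for excitatory neuron markers (others -0.09 to 0.08) and at -0.22 for synaptic adhesion genes (others -0.02 to 0.05). KO_acetate 3 stood at -1.27 for meningeal fibroblast markers (others -0.24 to -0.07) and at 0.14 for cortical interneuron markers (others -0.07 to -0.02). KO_acetate 5 stood at -0.0731 for ER stress genes, where the others were closely grouped between -0.05 and -0.04. Among the controls, KO_control 1 stood at -0.10 for GABA receptor and synthesis genes (others 0.00 to 0.02). KO_control 2 stood at 0.10 for ionotropic glutamate receptor genes (others -0.02 to -0.00) and at -0.12 for astrocyte markers, where the other controls lay between 0.17 and 0.21.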

How the results depend on the processing

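Acetate against control in the KO gave 0 called genes under every alternative run except the omission of KO_acetate 2 or of KO_acetate 3, so the count ranged from 0 to 1 over the omission of each library. The difference between the KO and WT responses gave 0 called genes under every alternative run. Genes at an unadjusted p under 0.05, a count added after the data were seen, numbered 1940 for acetate in the KO, 1253 when the 9 libraries were fitted alone and 966 without KO_acetate 1 and KO_control 1 together. Omission of single libraries gave 1250 to 2392, with 1250 without KO_control 1. For the difference between the genotypes they numbered 543, 345 without both of these libraries and 392 to 825 over single omissions, with 825 without KO_acetate 3 and 802 without KO_acetate 5. The cause of these shifts was not tested. No named gene was called with all libraries, so a reversal of a called value could not occur. Of 646 values for 34 named genes, 640 kept their direction and their side of the threshold, 4 changed direction and 2 became called. The size of the log2 fold was not part of this count, and few values passed the threshold at all, so it says little about stability. The log2 fold of Pde10a, for example, ran from -0.51 to 0.05 over single omissions. No paired analysis was possible because the labels carry no replicate numbers. With 4 and 5 libraries and a median standard error of 0.115 per gene, small differences could not be told from the spread.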

Other observations

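Lists that the comparison above did not describe lay near the background of 6.60% higher and 6.44% lower genes at an unadjusted p under 0.05, with 1 exception among markers. Interferon-stimulated genes had a median log2 fold of -0.23 in the KO, with 20 of 24 negative and 2 lower at that p, or 0 to 3 over single omissions. Activity-induced effector genes had a median of -0.13, with 1 of 23 lower, or 5 without KO_acetate 3, and heat shock and chaperone genes a median of -0.01, with 1 of 24 higher and 1 lower. Synaptic adhesion genes had a median of -0.02, with 1 of 32 higher and 2 lower, and monoamine and neuropeptide receptor genes a median of 0.02, with 2 of 32 higher and 1 lower. Pericyte and smooth muscle markers had 2 of 15 lower, cortical interneuron markers 2 of 22 lower and excitatory neuron markers 1 of 12 lower. Choroid plexus markers had 1 of 8 lower and blood markers 0 of 6 in either direction.

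The exception was the oligodendrocyte precursor list, with 4 of 14 lower and 1 higher at an unadjusted p under 0.05 and a median of -0.04. Cspg4, the NG2 proteoglycan of precursors and pericytes, read 5.07, 4.75, 4.83 and 4.60 in the controls and 4.47, 4.41, 4.26, 4.33 and 4.70 under acetate, a log2 fold of -0.38 ± 0.11 (limma adjusted p = 0.205). Pdgfra, the growth factor receptor that defines these cells, was at -0.28 ± 0.12, or -0.13 without KO_control 1. Without KO_acetate 1 and KO_control 1 the list had 1 member lower at that p.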
